A study of Homo sapiens with 12 samples.

Results

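A set of 10 transcription factor genes that steer myeloid and megakaryocytic development were followed across a MYB knockdown and rescue experiment in K-562 cells, a human erythroleukemic cell line. The 10 genes are a list of symbols, drawn up with earlier results of these data known and with no measured value in its rule: RUNX1 and its partner CBFB, the ETS factors SPI1 (PU.1), ETV6 and FLI1, the bZIP factors CEBPB, CEBPG and NFE2, and the zinc-finger repressors GFI1 and GFI1B. All 10 were found among the 60658 rows of the deposited expression table, and 8 of them were among the 13393 genes that could be tested, for which 3 or more of the 12 libraries had to reach 1 FPKM. FPKM counts sequenced fragments relative to the length of a gene's transcript and to the library's mapped fragments. GFI1 and FLI1 did not reach that level and are described by their values alone.

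The study held 4 groups of 3 libraries, and RNA was taken 24 hours after transfection of small interfering RNA (siRNA). The control cells stably expressed the construct labelled 3xTY1 and received a siGENOME non-targeting siRNA. The MYB knockdown cells carried the same 3xTY1 construct and received the MYB siRNA si2992. The wild-type rescue cells received si2992 and stably expressed 3xTY-hcM, and the D152V rescue cells received si2992 and stably expressed 3xTY-D152V. Stable lines were selected with G418, which applies to all 4 groups as the labels are written. Each construct is thus carried by its own stable line, so an effect of the line and an effect of the construct cannot be told apart in any comparison that involves a rescue. The replicates are called individual experiments in the design text, and p-values measure only the spread between these samples of 1 cell line. In bulk RNA, fewer cells of a type and less RNA per cell cannot be told apart.

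RUNX1 binds DNA as a heterodimer with CBFB, which has no DNA contact of its own, and together they form core-binding factor, a regulator of blood stem cell emergence and of megakaryocyte and myeloid maturation. PU.1 and the C/EBP proteins drive monocyte and granulocyte genes, PU.1 and the erythroid factor GATA1 antagonise each other, and GFI1 and GFI1B repress genes by recruiting the LSD1 and CoREST complex. NFE2, ETV6 and FLI1 serve the megakaryocyte and platelet programme, and MYB is a regulator of haematopoietic progenitors upstream of many of these genes.

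MYB itself checked the labels. It stood at 124, 132 and 104 FPKM in the control libraries and at 26.1, 32.9 and 31.5 FPKM in the knockdown libraries, so the knockdown mean was 25.1% of the control mean. The wild-type rescue libraries held 132, 125 and 115 FPKM, and the D152V rescue libraries 86.6, 86.2 and 100 FPKM. The table has 1 value per gene, so endogenous and introduced MYB RNA are not separated. MYB was lower in the D152V than in the wild-type rescue by a log2 difference of -0.44, at a limma adjusted p of 0.0494 that passed 0.05 in 2 of 20 alternative settings (0.00529 to 0.169).

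The knockdown library of replicate 1 stood apart. Its FPKM values summed to 1215578, against 672616 to 798362 in the other 11 libraries, and it correlated with the other knockdown libraries at 0.929 and 0.930 (Pearson r on log2 values), where all other pairs within a group reached at least 0.983. Ribosomal protein genes held 23.1% of its FPKM total, 16.9% and 16.0% in the other knockdown libraries and 10.2% to 14.2% in the 9 libraries of the other groups, so a high share went with the whole knockdown group. Values without knockdown replicate 1 stand beside the results that rest on that group, and the part of the ribosomal share in them was not tested. All 12 erythroid markers were tested, with summed values of 1061 to 6387 FPKM, and 1 of 14 monocyte and granulocyte markers (LYZ), 5 of 12 megakaryocyte and 3 of 10 lymphoid markers reached the tested level. The summed FPKM of the 10 lymphoid markers was 21.0 to 27.9 in the control, 22.9 to 105 in the knockdown, 38.7 to 64.9 in the wild-type rescue and 80.9 to 114 in the D152V rescue, and its part in the members' differences was not tested.

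The promoter stretches of 3 members are shown because these members moved in different directions in the rescue: RUNX1 and ETV6 were higher in the wild-type rescue than in the knockdown, and CEBPB was lower. Each is the 250 bases before an annotated start, written 5′ to 3′ on the gene's strand, from RefSeq on GRCh38.p14. They cover chr21:34888700-34888949 on the minus strand for RUNX1, chr12:11649424-11649673 on the plus strand for ETV6 and chr20:50190333-50190582 on the plus strand for CEBPB. Capitals mark a match to any of 5 motifs.
RUNX1: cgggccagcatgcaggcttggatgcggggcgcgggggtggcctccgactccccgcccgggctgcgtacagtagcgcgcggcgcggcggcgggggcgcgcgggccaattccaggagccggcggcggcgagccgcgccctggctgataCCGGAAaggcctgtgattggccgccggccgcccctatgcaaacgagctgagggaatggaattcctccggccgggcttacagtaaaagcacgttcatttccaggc
ETV6: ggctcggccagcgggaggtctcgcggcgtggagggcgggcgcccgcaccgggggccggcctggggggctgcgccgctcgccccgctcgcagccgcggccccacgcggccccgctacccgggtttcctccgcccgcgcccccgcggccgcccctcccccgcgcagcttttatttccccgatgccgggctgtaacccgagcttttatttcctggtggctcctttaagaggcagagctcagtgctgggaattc
CEBPB: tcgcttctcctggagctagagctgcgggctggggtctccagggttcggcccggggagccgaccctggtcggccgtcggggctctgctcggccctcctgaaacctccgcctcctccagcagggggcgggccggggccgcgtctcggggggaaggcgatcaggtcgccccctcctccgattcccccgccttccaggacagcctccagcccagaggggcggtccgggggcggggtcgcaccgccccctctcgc
The motifs searched on both strands were AACNG for MYB, TGTGGT for RUNX factors, CCGGAA for ETS factors, AGATAA for GATA factors and TTGCNNAA for C/EBP factors. The RUNX1 stretch held 1 ETS match, and the ETV6 and CEBPB stretches held none of the 5 motifs. Of 35116 promoter stretches of the same length, 70.6% held the MYB motif, 10.98% the RUNX motif, 14.5% the ETS motif, 9.17% the GATA motif and 9.05% the C/EBP motif. CEBPB has a second annotated start, whose stretch (chr20:50190580-50190829) is not printed and held 2 matches to the MYB motif. The RUNX1 start used here lies inside the gene. A match is a run of letters and says nothing about binding. For 6 of the 10 members an entry was found, and CBFB, SPI1, FLI1 and NFE2 had none.

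The 6 comparisons between groups were made with 1 limma fit on log2(FPKM + 1), and a gene was called at a Benjamini-Hochberg adjusted p under 0.05 over all 13393 genes. Between the knockdown and the control, 2 of the 8 tested members fell, CBFB and ETV6, and 0 rose, where 7.38% of all genes were called lower and 3.94% higher. CEBPB alone was higher at an unadjusted p under 0.05. Between the wild-type rescue and the knockdown, RUNX1 and ETV6 rose (2 of 8, against 20.6% of all genes) and SPI1 and CEBPB fell (2 of 8, against 16.9%). Between the D152V rescue and the knockdown, ETV6 rose (1 of 8, against 13%) and SPI1 and CEBPB fell (2 of 8, against 12%). Whether the members' shares differ from those of all genes was not tested.

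Between the D152V and the wild-type rescue, RUNX1 fell (1 of 8, against 6.19% of all genes called lower), and 0 members rose (5.96% of all genes), with NFE2 higher at an unadjusted p under 0.05. No member was called between the wild-type rescue and the control (0 of 8 in each direction, against 5.04% of all genes higher and 4.58% lower), with RUNX1 higher and CBFB lower at an unadjusted p under 0.05. Between the D152V rescue and the control, SPI1 and CBFB fell (2 of 8, against 4.94%) and 0 rose (4.61%), with 0 higher also at an unadjusted p under 0.05. Comparisons that share the knockdown or the control group are not independent of each other.

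**Figure D1:**
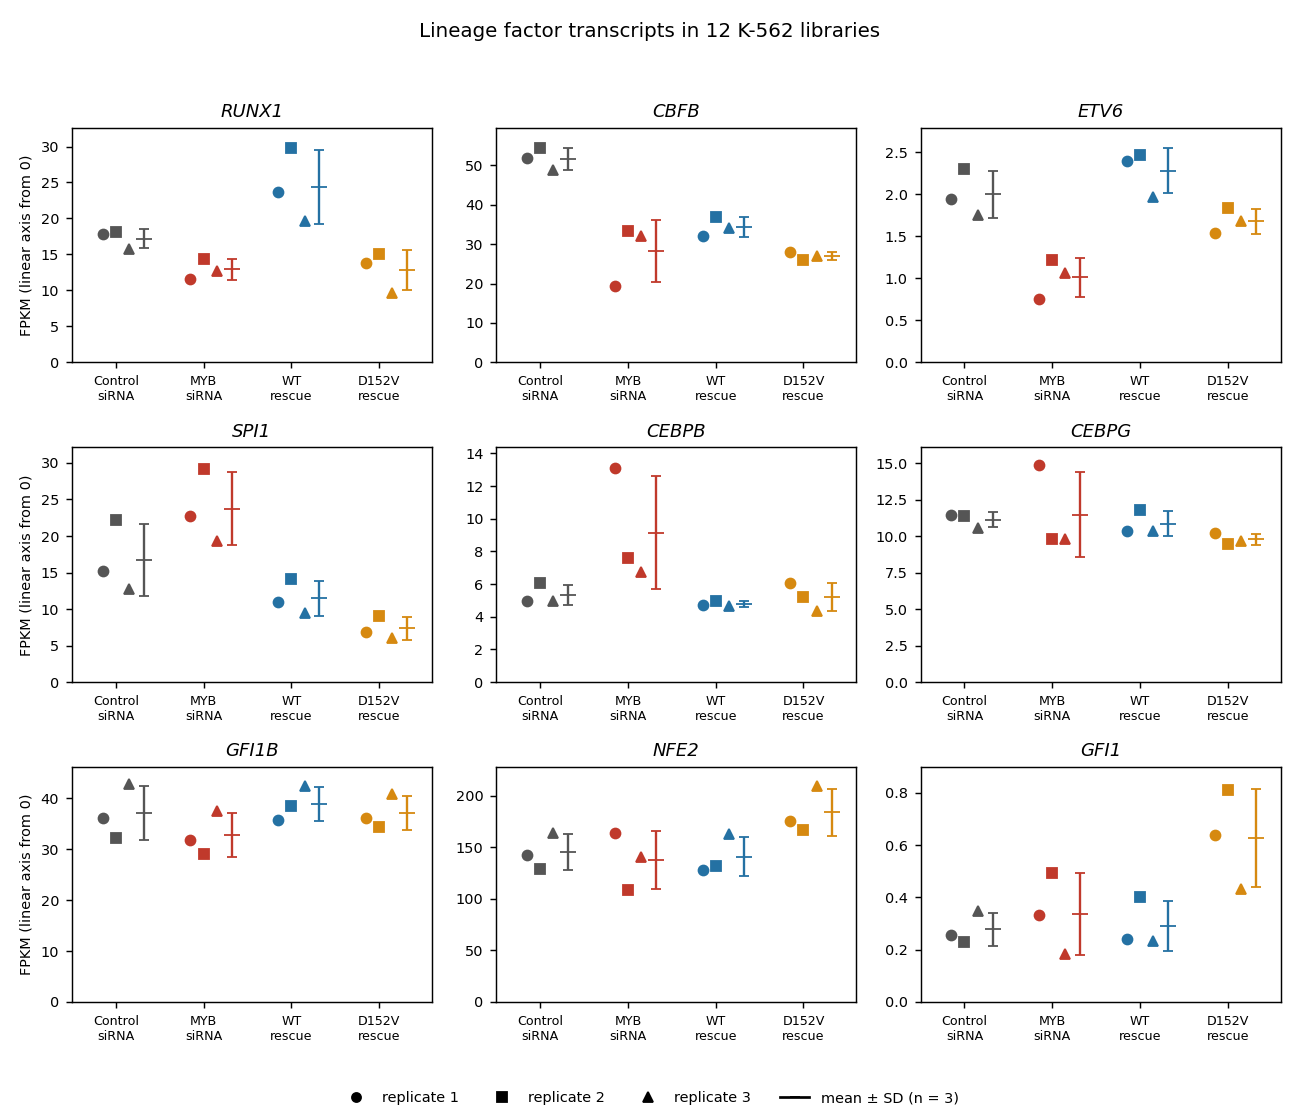
FPKM (linear axis from 0) of 9 members in each of the 12 libraries, by group, with replicates as symbols and the mean ± SD of 3 libraries beside them. RUNX1 was highest in the 3 wild-type rescue libraries (19.6 to 29.8 FPKM) and SPI1 lowest in the 3 D152V rescue libraries (6.07 to 9.07 FPKM).

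RUNX1, the DNA-binding subunit of core-binding factor, was higher in the wild-type rescue than in both the knockdown and the D152V rescue. It stood at 17.9, 18.1 and 15.7 FPKM in the control libraries and at 11.6, 14.4 and 12.7 FPKM in the knockdown libraries. The wild-type rescue libraries held 23.7, 29.8 and 19.6 FPKM, and the D152V rescue libraries 13.8, 15.0 and 9.67 FPKM. Every wild-type rescue library was above all 9 others, and the knockdown and D152V libraries overlapped each other and lay below every control library. The wild-type rescue exceeded the knockdown by 0.85 ± 0.18 (log2 difference ± SE, n = 3 libraries a group, limma adjusted p = 0.00469).

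The D152V rescue fell short of the wild-type rescue by a log2 difference of -0.88 ± 0.18 (limma adjusted p = 0.00832), where knockdown libraries enter only the shared estimate of spread. The group means were 24.4 ± 5.11 FPKM in the wild-type and 12.8 ± 2.80 FPKM in the D152V rescue (SD, n = 3), or 142% and 74.5% of the control mean. Both calls were kept in all 20 alternative settings, with adjusted p from 0.00179 to 0.0385 for the first and from 0.00230 to 0.0437 for the second. Without knockdown replicate 1 the first was 0.79 (adjusted p = 0.00535). The knockdown itself did not pass against the control (log2 difference -0.39, 95% confidence interval -0.79 to 0.01, adjusted p = 0.163, and -0.32 without knockdown replicate 1), nor did the D152V rescue against the knockdown (-0.03, -0.42 to 0.37, adjusted p = 0.924). RUNX1 spans chr21:34787801-35049302 (GRCh38.p14) and overlaps the annotated RUNX1-AS1 and RUNX1-IT1. The libraries came from a stranded kit, but whether the values were computed by strand is not stated in any label or header, so reads of such overlapping genes may not be told apart.

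CBFB, the partner that raises the DNA affinity of RUNX1, had its highest values in the control cells. The control libraries held 51.8, 54.4 and 48.8 FPKM, and the knockdown libraries 19.3, 33.4 and 32.1 FPKM. With wild-type MYB restored, CBFB stood at 32.0, 36.9 and 34.2 FPKM, and with D152V at 28.0, 26.0 and 27.0 FPKM. All 9 libraries that received the MYB siRNA lay below the lowest control library, the wild-type rescue included. The D152V rescue reached 52.2% of the control mean (log2 difference -0.91 ± 0.17, limma adjusted p = 0.00702), a call kept in all 20 alternative settings, up to an adjusted p of 0.0362.

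The knockdown reached 54.8% of the control mean (-0.88 ± 0.17, limma adjusted p = 0.0148). That call was lost without control replicate 1 (adjusted p = 0.0661), without control replicate 2 (0.0686) and in a fit of only the 6 libraries compared (0.167). Adjusted p ranged from 0.000852 to 0.167 over the 20 settings. Knockdown replicate 1 was the lowest CBFB library, and without it the knockdown stood at 63.5% of control (-0.64, adjusted p = 0.000852). The wild-type rescue did not pass against the control in the fit of 12 libraries (66.5% of the control mean, -0.57, adjusted p = 0.0635). It did pass without knockdown replicate 1 (0.000264) or replicate 2 (0.0483), and in the fit of 6 libraries (0.00279), since 1 estimate of the spread is shared by all groups. Without knockdown replicate 1, CBFB was also lower in the D152V rescue than in the wild-type rescue (-0.34, adjusted p = 0.00510) and than in the knockdown (-0.27, adjusted p = 0.0260), which with all 12 libraries gave adjusted p values of 0.270 and 0.917.

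Cofactors of core-binding factor were examined with a list of 14 genes (other RUNX family members, the ETO family, Groucho-type TLE corepressors, KMT2A and modifiers of RUNX1), of which 9 were tested. In the knockdown 3 of 9 fell (7.38% of all genes) and 0 rose (3.94% of all genes, and 0 of the 9 also at an unadjusted p under 0.05), with a median log2 difference of -0.46 against -0.03 over all tested genes. In the wild-type rescue against the knockdown 4 rose and 1 fell (20.6% and 16.9% of all genes, median 0.40 against 0.03), and in the D152V rescue against the knockdown 2 rose and 1 fell (13% and 12% of all genes, median 0.35 against 0.02). None passed between the rescues (5.96% of all genes higher and 6.19% lower), also at an unadjusted p under 0.05. The count that fell in the knockdown was 4 without its replicate 1, and 1 was then higher and 1 lower between the rescues. Of the 13269 genes of that fit, 1728 fell in the knockdown, and 1823 were higher and 2384 lower between the rescues. KMT2A, a histone methyltransferase that binds RUNX1, rose from 6.34, 6.67 and 6.16 FPKM in the knockdown to 12.4, 11.1 and 10.4 FPKM in the wild-type rescue (log2 difference 0.73, also 0.73 without knockdown replicate 1, limma adjusted p = 0.00232), a call kept in all alternatives run. TLE4, a Groucho-type corepressor, was at 4.14, 3.84 and 3.55 FPKM in the control and at 0.793, 3.54 and 3.37 FPKM in the knockdown. It stood at 0.238, 0.155 and 0.247 FPKM in the wild-type rescue and at 0.260 FPKM in the first D152V library, and was listed at 0 in the other two. TLE4 reached the tested level only through 5 control and knockdown libraries, so its place among the tested genes follows from the groups where it was high.

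PU.1, encoded by SPI1 on chr11:47354860-47378547, was lower in both rescues than in the knockdown. It stood at 15.2, 22.2 and 12.7 FPKM in the control libraries and at 22.7, 29.1 and 19.3 FPKM in the knockdown libraries. With wild-type MYB restored it stood at 10.9, 14.1 and 9.44 FPKM, and with D152V at 6.92, 9.07 and 6.07 FPKM. Every rescue library lay below every knockdown library, and every D152V library below every wild-type rescue library. In each group replicate 2 was the highest and replicate 3 the lowest.

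The D152V rescue was lower than the knockdown by a log2 difference of -1.56 ± 0.23 (n = 3 a group, limma adjusted p = 0.00124), and the wild-type rescue by -0.98 ± 0.23 (limma adjusted p = 0.00714). Both calls were kept in all 20 alternative settings, with adjusted p up to 0.0190 and 0.0362, and without knockdown replicate 1 the differences were -1.58 and -1.01. Against the control the D152V rescue reached 44.1% of the mean (-1.06 ± 0.23, limma adjusted p = 0.0126). This last call was lost without control replicate 2 (adjusted p = 0.0597), without D152V replicate 1 (0.0534) and without D152V replicate 3 (0.0651), within a range of 0.00029 to 0.0651. The knockdown was not called against the control (142% of the mean, log2 difference 0.50, adjusted p = 0.157). With the replicate number as a block, the knockdown and the wild-type rescue were both called against the control, as given in the closing section. By the labels those groups share only a number.

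Between the rescues SPI1 did not pass (D152V minus wild-type -0.58, 95% confidence interval -1.08 to -0.08, limma adjusted p = 0.136). Libraries of the rescue lines that share a number deviated together, and with the replicate number as a block the adjusted p was 0.00422. It was 0.0481 in the fit of those 6 libraries alone.

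ETV6, an ETS family repressor needed for adult haematopoietic stem cells and platelet formation, moved with MYB in the knockdown and the wild-type rescue. It was expressed at low levels, 1.94, 2.30 and 1.76 FPKM in the control and 0.759, 1.22 and 1.07 FPKM in the knockdown. In the rescues it reached 2.40, 2.47 and 1.97 FPKM with wild-type MYB and 1.54, 1.83 and 1.68 FPKM with D152V. The 3 knockdown libraries were the lowest of the 12, and the D152V libraries lay between them and the wild-type rescue without touching either. The wild-type rescue exceeded the knockdown by 0.71 ± 0.14 (limma adjusted p = 0.00320), in all of the 19 alternative settings that tested it (0.00297 to 0.0423), and by 0.61 without knockdown replicate 1.

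The knockdown fell to 50.7% of the control mean of ETV6 (-0.58 ± 0.14, limma adjusted p = 0.0275), and was at -0.48 without its replicate 1 (adjusted p = 0.0303). This call was lost without control replicate 1 (adjusted p = 0.0948), replicate 2 (0.114) or replicate 3 (0.0568), with no filter on low values (0.0686) and in the fit of 6 libraries (0.170), within a range of 0.0230 to 0.170. The D152V rescue exceeded the knockdown by 0.42 ± 0.14 at a limma adjusted p of 0.0476, which 14 of 19 settings ended, up to 0.160. Leaving out any single library but knockdown replicate 2 was enough to end it, with adjusted p from 0.0550 to 0.144. The rescues were not called different (-0.29, 95% confidence interval -0.59 to 0.02, adjusted p = 0.230). FLI1, an ETS activator of megakaryocyte genes, was listed at 0 in 10 of the 12 libraries and at 0.02 FPKM in control replicate 3 and wild-type rescue replicate 1.

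**Figure D2:**
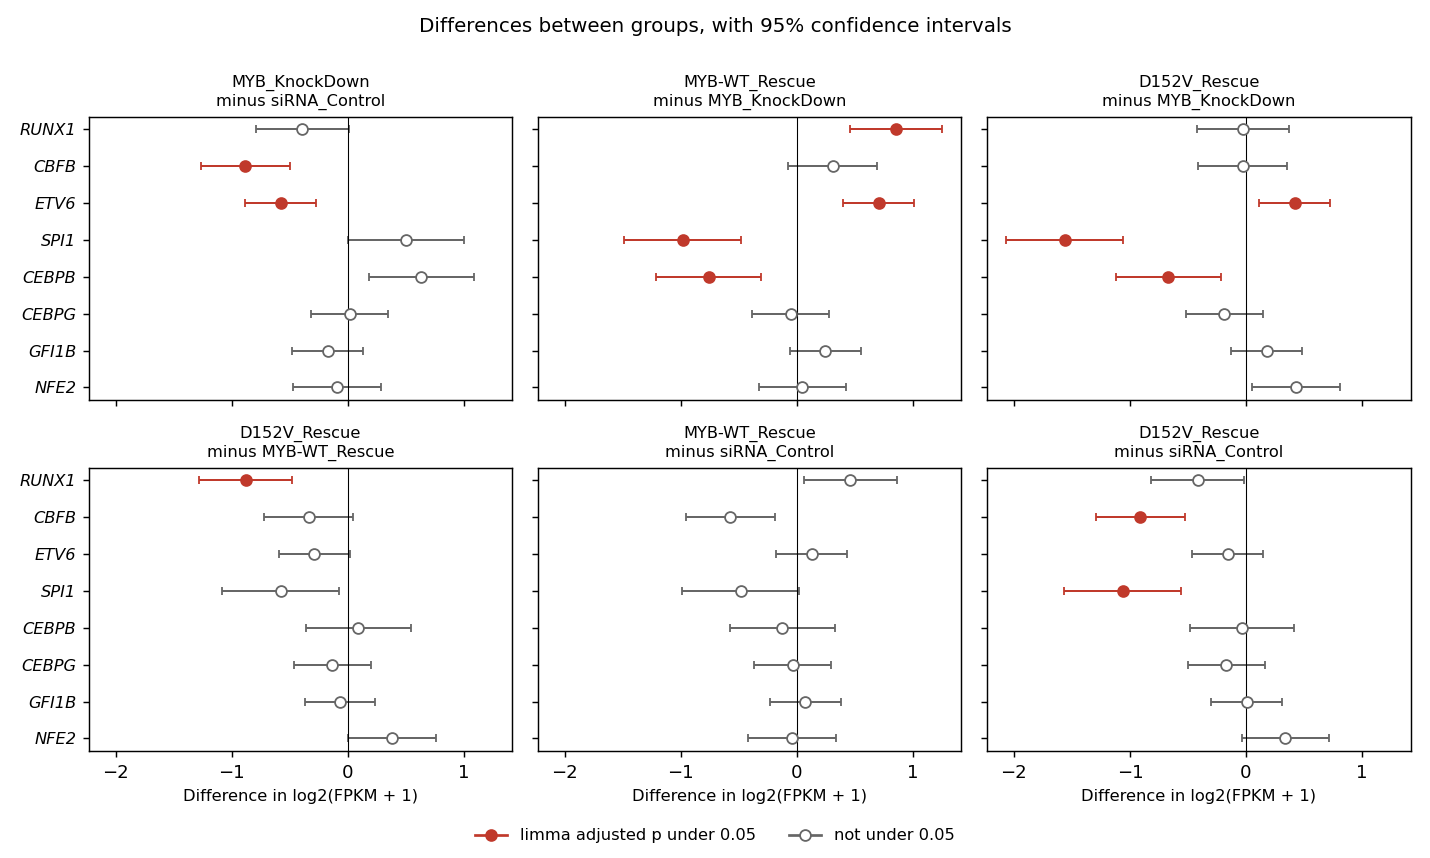
Differences in log2(FPKM + 1) between groups for the 8 tested members, 1 panel a comparison, with 95% confidence intervals from the limma fit and filled points where the adjusted p was under 0.05. SPI1 lay furthest to the left in the D152V rescue against the knockdown (-1.56), and RUNX1 was the filled point between the rescues (-0.88).

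Of 23 other ETS family genes 17 were tested. In the wild-type rescue against the knockdown 6 rose and 1 fell (20.6% and 16.9% of all genes), and in the D152V rescue against the knockdown 3 rose and 0 fell (13% and 12% of all genes), with 0 lower also at an unadjusted p under 0.05. These counts include FEV in the first comparison, whose 3 wild-type rescue libraries and 1 D152V library alone reached 1 FPKM, and EHF in the second. Both reached the tested level only through the group where they were high, and without them the counts that rose were 5 and 2. With knockdown replicate 1 left out and FEV and EHF counted, 3 fell in the first of these comparisons and 5 rose in the second. Of the 13269 genes of that fit, 2641 fell in the first and 2223 rose in the second. ETV1, a PEA3-type ETS activator, stood at 7.82, 7.21 and 7.52 FPKM in the control and at 7.76, 8.11 and 6.47 FPKM in the knockdown. It fell to 2.36, 2.45 and 2.36 FPKM in the wild-type rescue and stood at 9.73, 9.61 and 7.47 FPKM in the D152V rescue. ETV1 thus separated the rescues by a log2 difference of 1.54 ± 0.13 (limma adjusted p = 2.07e-05), in the opposite direction to RUNX1. ELK4, a ternary complex factor, rose from 5.84, 6.66 and 6.77 FPKM in the knockdown to 15.4, 18.2 and 13.3 FPKM with wild-type MYB (1.16 ± 0.13, 1.099 without knockdown replicate 1, limma adjusted p = 0.000184), and the D152V libraries lay between at 10.7, 10.8 and 9.45 FPKM.

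ELK3, a related ternary complex factor that can act as a repressor, stood at 1.54, 2.97 and 2.87 FPKM in the knockdown. It rose to 6.69, 6.95 and 5.42 FPKM in the D152V rescue (1.11 ± 0.19, 0.90 without knockdown replicate 1, limma adjusted p = 0.00262). In the wild-type rescue ELK3 also rose, to 4.21, 5.14 and 5.37 FPKM (0.80 ± 0.19, 0.59 without knockdown replicate 1, limma adjusted p = 0.00732). That second call was ended by 1 alternative, and the rescues were not called different. EHF, an ETS factor of epithelia, was at 2.82, 3.22 and 2.36 FPKM in the D152V rescue and at 0.0673 to 0.269 FPKM in the 9 other libraries. EHF passed the filter only through the D152V libraries, so its place among the tested genes follows from that selection. The calls given here for ETV1 and ELK4, and for ELK3 with D152V, were kept in every alternative run.

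**Figure D3:**
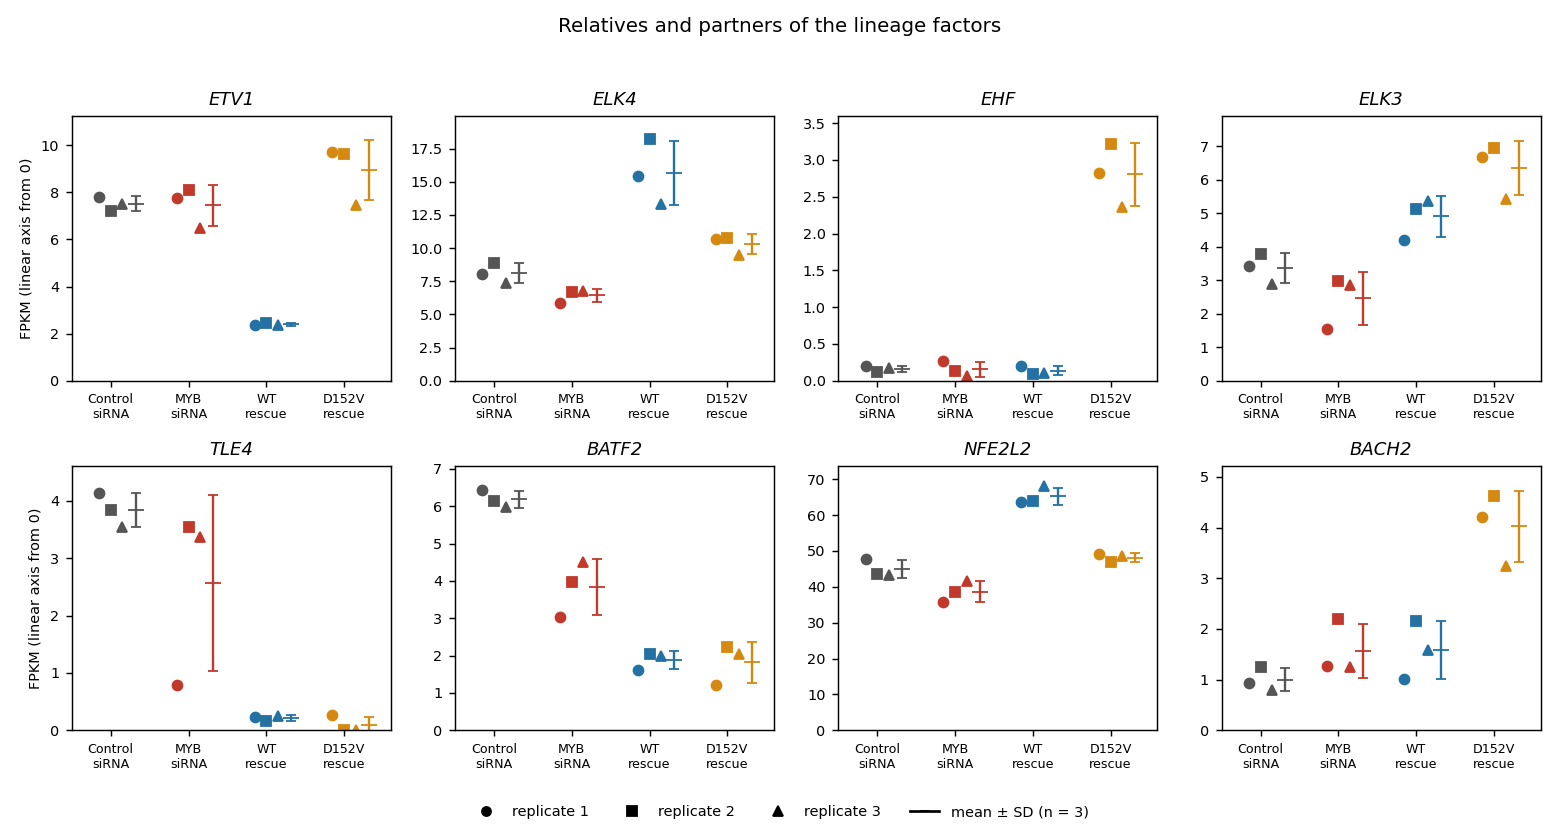
FPKM (linear axis from 0) of 8 relatives and partners of the members in each library, by group, with the mean ± SD of 3 libraries. ETV1 was lowest in the wild-type rescue (2.36 to 2.45 FPKM), and EHF (2.36 to 3.22 FPKM) and BACH2 (3.24 to 4.62 FPKM) were highest in the D152V rescue.

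CEBPB, a bZIP activator of macrophage and stress genes, was highest in the knockdown libraries. It stood at 4.99, 6.04 and 4.94 FPKM in the control and at 13.1, 7.57 and 6.76 FPKM in the knockdown. The wild-type rescue libraries held 4.70, 4.99 and 4.67 FPKM and the D152V rescue libraries 6.05, 5.21 and 4.33 FPKM. All 3 knockdown libraries were above the 9 others, with replicate 1 far above the rest. The wild-type rescue was lower than the knockdown by -0.76 ± 0.21 (log2 difference ± SE, limma adjusted p = 0.0151), kept in 19 of 20 settings and lost in the fit of 6 libraries (0.0865). Without knockdown replicate 1 it was -0.50 (adjusted p = 0.0114).

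The D152V rescue was lower than the knockdown by -0.67 ± 0.21 at a limma adjusted p of 0.0364, and 10 of 20 settings ended this call. Among them were leaving out any of the 3 D152V libraries (adjusted p = 0.0561 to 0.119), any of the 3 wild-type rescue libraries (0.0501 to 0.0517) or control replicate 1 or 3 (0.0530 and 0.0520), and the highest was 0.168 in the fit of 6 libraries. Without knockdown replicate 1 the difference was -0.41 (adjusted p = 0.0394). The knockdown missed the threshold against the control (172% of the mean, 0.63 ± 0.21, adjusted p = 0.0664, and 135% without replicate 1). It passed without knockdown replicate 2 (0.0492) or replicate 3 (0.0311), that is, where replicate 1 weighed more. CEBPB covers chr20:50190583-50192690 (GRCh38.p14), and the annotated gene CEBPB-AS1 overlaps it.

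CEBPG, a C/EBP protein without an activation domain that dimerises with other bZIP factors, passed in no comparison and in no alternative. Its values ran from 9.47 to 14.9 FPKM over the 12 libraries, the highest being knockdown replicate 1 and the next 11.8 FPKM in wild-type rescue replicate 2. The D152V rescue differed from the wild-type rescue by -0.13 (95% confidence interval -0.46 to 0.20).

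Of 13 other C/EBP and bZIP genes 8 were tested, and ATF4, the integrated stress response factor, was the most abundant. In the wild-type rescue and in the D152V rescue against the knockdown 3 of 8 fell and 0 rose (0 also at an unadjusted p under 0.05). Of all genes, 16.9% and 12% were called lower and 20.6% and 13% higher in these comparisons. BATF, an AP-1 type bZIP factor, is 1 of the 3 in both and reached 1 FPKM in the 3 knockdown libraries and in 1 other library only. Its place among the tested genes thus follows from the group where it was high, and 2 remain in each comparison without it. Leaving out knockdown replicate 1 gave 3 lower with wild-type MYB and 4 with D152V, where 2641 and 2104 of 13269 genes were lower. BATF2, a bZIP factor of interferon-stimulated macrophages, stood at 6.42, 6.15 and 5.97 FPKM in the control and at 3.02, 3.97 and 4.50 FPKM in the knockdown. Its values ran from 1.61 to 2.04 FPKM in the wild-type rescue libraries and were 1.201, 2.22 and 2.06 FPKM in the D152V rescue libraries. BATF2 was thus lower in both rescues than in the control, by log2 differences of -1.32 and -1.36 (limma adjusted p = 0.000817 and 0.000544), and both calls were kept in every alternative run.

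NFE2, the haematopoietic subunit of the factor that drives globin and platelet genes, was the most abundant member. It stood at 142, 129 and 164 FPKM in the control and at 164, 108 and 140 FPKM in the knockdown. The wild-type rescue libraries held 128, 132 and 163 FPKM and the D152V rescue libraries 175, 167 and 210 FPKM. The 3 D152V libraries were the highest of the 12, and the other groups overlapped. No NFE2 comparison passed with all 12 libraries: the D152V rescue differed from the knockdown by 0.43 (95% confidence interval 0.05 to 0.81, limma adjusted p = 0.0855) and from the wild-type rescue by 0.38 (adjusted p = 0.195).

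NFE2 passed in the D152V rescue against the knockdown with quantile normalization (0.71, adjusted p = 0.00491), with the replicate block (0.0443) and without knockdown replicate 1 (0.57, 0.0144). Against the wild-type rescue it passed with quantile normalization (0.0466) and without knockdown replicate 1 (0.0492). Globin and other erythroid RNA varied beside it: the summed FPKM of 12 erythroid markers was 1510 to 3129 in the control, 2051 to 6387 in the knockdown, 1061 to 2138 in the wild-type rescue and 2399 to 4064 in the D152V rescue. The part of these markers in the NFE2 values was not tested.

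All 8 listed relatives and small MAF partners of NFE2 were tested. In the D152V rescue against the knockdown 3 rose and 0 fell (13% and 12% of all genes, median 0.39 against 0.02), in the wild-type rescue 2 rose and 0 fell (20.6% and 16.9% of all genes, median 0.31 against 0.03), with 0 lower in both also at an unadjusted p under 0.05. When knockdown replicate 1 was left out, 4 rose and 1 fell with D152V and 3 rose and 1 fell with wild-type MYB. Of 13269 genes, 2223 then rose and 2104 fell with D152V, and 3387 rose and 2641 fell with wild-type MYB. NFE2L2 (NRF2), the regulator of the antioxidant response, rose from 35.7, 38.6 and 41.7 FPKM in the knockdown to 63.8, 63.8 and 68.0 FPKM with wild-type MYB (0.74 ± 0.10, 0.69 without knockdown replicate 1, limma adjusted p = 0.000385, kept in every alternative run). BACH2, a repressor that pairs with the same MAF proteins, stood at 0.932, 1.24 and 0.803 FPKM in the control, at 1.01, 2.15 and 1.59 FPKM in the wild-type rescue and at 4.20, 4.62 and 3.24 FPKM in the D152V rescue. BACH2 was higher in the D152V than in the wild-type rescue by 0.97 ± 0.20 (limma adjusted p = 0.00917, kept in every alternative run).

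GFI1B, the repressor that dominates in erythroid cells and megakaryocytes, passed in no comparison and in no alternative. It stood at 36.1, 32.3 and 42.8 FPKM in the control and at 31.9, 29.0 and 37.4 FPKM in the knockdown. The wild-type rescue libraries held 35.8, 38.5 and 42.5 FPKM and the D152V rescue libraries 36.2, 34.3 and 40.9 FPKM. Replicate 3 was the highest library of each group, and all groups overlapped. The intervals for GFI1B bound the difference from the control to between -0.48 and 0.13 in the knockdown, -0.23 and 0.38 in the wild-type rescue and -0.30 and 0.31 in the D152V rescue (95% confidence intervals of log2 differences).

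GFI1, the paralogue used in granulocytes and lymphoid cells, stayed under 1 FPKM in every library and was not tested. It stood at 0.258, 0.228 and 0.347 FPKM in the control, at 0.332, 0.495 and 0.183 FPKM in the knockdown and at 0.240, 0.402 and 0.234 FPKM in the wild-type rescue. The D152V rescue libraries held 0.637, 0.811 and 0.434 FPKM, of which 0.434 lies within the range of the knockdown.

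All 11 listed corepressors of GFI1 and GFI1B were tested, which are genes of the LSD1 and CoREST complex and the histone methyltransferases EHMT2 and SUV39H1. In the wild-type rescue against the knockdown 3 rose and 0 fell (2 lower at an unadjusted p under 0.05, median log2 difference -0.09 against 0.03 over all tested genes), and in the D152V rescue 1 rose and 2 fell (median -0.20 against 0.02). Of all genes 20.6% rose and 16.9% fell in the first of these comparisons and 13% and 12% in the second. These counts without knockdown replicate 1 were 5 and 0 with wild-type MYB and 2 and 3 with D152V. Over the 13269 genes of that fit they were 3387 and 2641 with wild-type MYB and 2223 and 2104 with D152V. PHF21A, the complex's reader of unmethylated histone H3, stood at 14.1, 12.5 and 13.8 FPKM in the knockdown and rose in both rescues, to 20.8 to 23.0 FPKM in the wild-type (0.66 ± 0.10, adjusted p = 0.00106) and 22.4 to 25.9 FPKM in the D152V rescue (0.77 ± 0.10, limma adjusted p = 0.000842). PHF21A differences without knockdown replicate 1 were 0.69 and 0.80. KDM1A (LSD1) was at 88.7, 90.9 and 95.7 FPKM in the control and at 176, 74.3 and 74.8 FPKM in the knockdown. It stood at 84.4, 85.9 and 95.4 FPKM in the wild-type and at 52.6, 57.7 and 54.3 FPKM in the D152V rescue. It fell with D152V against the knockdown (-0.84 ± 0.26, limma adjusted p = 0.0369), a call 11 alternatives ended. Without knockdown replicate 1 this was -0.44 (0.00159), and the rescues, not called different with all libraries, differed by -0.68 (3.13e-05). RCOR3, a CoREST paralogue, was at 29.4, 30.7 and 29.6 FPKM in the wild-type and at 18.8, 22.0 and 20.4 FPKM in the D152V rescue, a log2 difference of -0.53 ± 0.10 (limma adjusted p = 0.00578). These PHF21A and RCOR3 calls were kept in every alternative run.

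Genes that PU.1, C/EBP and core-binding factor are known to activate in monocytes and granulocytes were mostly below 1 FPKM. Of 25 such genes 20 had a mean under 1 FPKM and 5 were tested. In the D152V rescue 4 of these 5 were lower than in the knockdown (12% of all genes) and 0 higher (13% of all genes, and 1 of the 5 at an unadjusted p under 0.05). In the wild-type rescue 2 were lower (16.9% of all genes) and 0 higher (20.6% of all genes, and 0 of the 5 also at an unadjusted p under 0.05). Without knockdown replicate 1 the counts of lower genes were 4 and 3, against 2104 and 2641 of all 13269 genes of that fit. CD33, a sialic acid receptor of myeloid cells, stood at 20.7, 23.2 and 16.3 FPKM in the control and at 20.8, 26.8 and 22.3 FPKM in the knockdown. It stood at 11.2, 11.6 and 11.8 FPKM in the wild-type rescue and at 11.3, 11.1 and 9.48 FPKM in the D152V rescue, below every control and knockdown library. CD33 was lower in the wild-type rescue than in the knockdown by -0.95 ± 0.15 (limma adjusted p = 0.000849, and -1.02 without knockdown replicate 1) and than the control by -0.73 (adjusted p = 0.00899).

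CYBA, the p22phox subunit of the phagocyte oxidase, was at 234, 167 and 131 FPKM in the knockdown, with replicate 1 highest, and at 53.2 to 68.9 FPKM over the 6 rescue libraries. It differed from the knockdown by -1.46 (log2, limma adjusted p = 0.000291) with wild-type MYB and by -1.44 (0.000582) with D152V, each with an SE of 0.18. CYBA differences without knockdown replicate 1 were -1.24 and -1.22. LYZ, the lysozyme of monocytes and granulocytes, stood at 15.6, 23.1 and 24.1 FPKM in the control and at 3.42, 4.13 and 5.04 FPKM in the D152V rescue (-2.07 ± 0.38, limma adjusted p = 0.00528). TYROBP, a signalling adaptor of myeloid cells, was listed at 0 in all 3 D152V libraries and at 0.593 to 2.52 FPKM in the 9 others. TYROBP is 1 of the 4 lower with D152V and reached 1 FPKM in 6 libraries, none of them D152V, so its place in that count rests partly on the filter. These CD33, CYBA and LYZ calls were kept in every alternative run. The summed FPKM of 14 monocyte and granulocyte markers, of which only LYZ was tested, was 17.3 to 26.3 in the control, 11.5 to 30.3 in the knockdown, 11.8 to 15.0 in the wild-type and 4.53 to 6.27 in the D152V rescue.

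**Figure D4:**
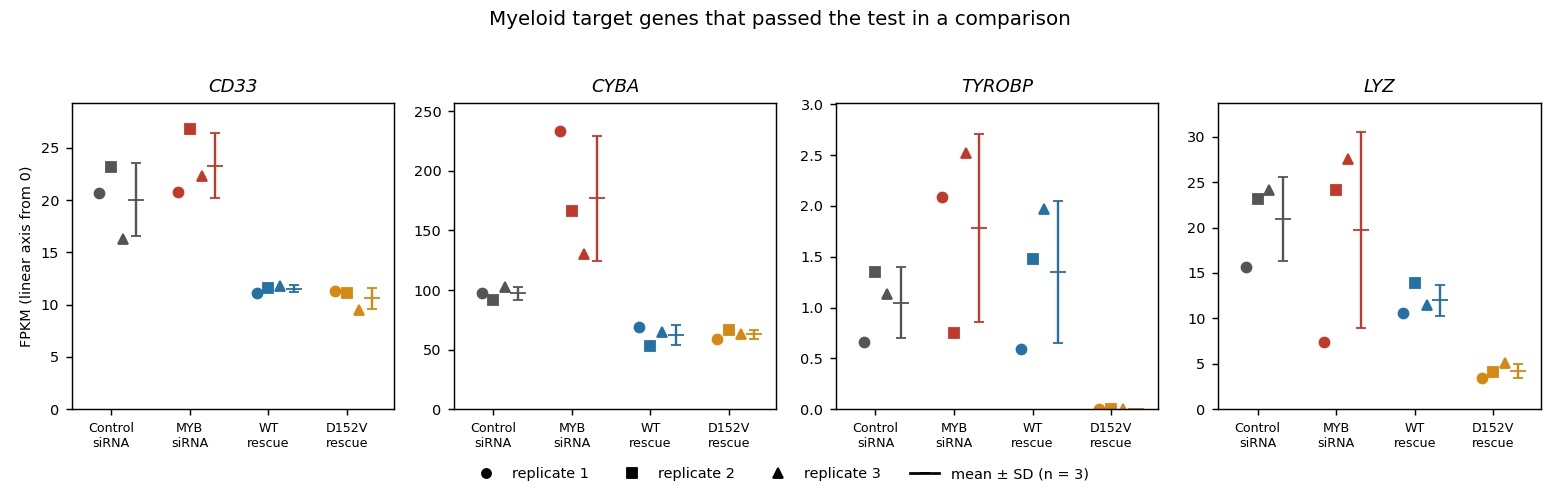
FPKM (linear axis from 0) of 4 myeloid target genes in each library, by group, with the mean ± SD of 3 libraries. CD33 was at 9.48 to 11.8 FPKM in the 6 rescue libraries and at 16.3 to 26.8 FPKM in the 6 others, and LYZ was lowest in the D152V rescue (3.42 to 5.04 FPKM).

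Of 22 megakaryocyte and platelet genes, targets of RUNX1, FLI1, NFE2 and GFI1B, 13 were tested. In the knockdown against the control 1 rose (3.94% of all genes) and 0 fell (7.38% of all genes, and 0 of the 13 also at an unadjusted p under 0.05), and in the D152V rescue against the control 2 rose (4.61%) and 1 fell (4.94%). Their median log2 differences were -0.06 and 0.07, against -0.03 and -0.04 over all tested genes. Without knockdown replicate 1 the second comparison had 3 higher and 1 lower, where 1506 of 13269 genes were higher and 2195 lower. SRGN, the proteoglycan of platelet granules, was at 116, 120 and 132 FPKM in the control and at 259, 185 and 212 FPKM in the knockdown. It was the gene that rose there (0.82 ± 0.15, limma adjusted p = 0.0110), a call that 3 alternatives ended. The wild-type rescue libraries held 142, 160 and 179 FPKM. The D152V rescue libraries held 240, 216 and 276 FPKM, overlapping the knockdown and above the control (0.98 ± 0.15, limma adjusted p = 0.00189). GP6, the platelet collagen receptor, stood at 2.35, 1.92 and 1.63 FPKM in the control and at 0.339, 0.376 and 0.511 FPKM in the D152V rescue (-1.07 ± 0.14, limma adjusted p = 0.000820). THBS1, thrombospondin of platelet alpha granules, stood at 0.380, 0.448 and 0.782 FPKM in the wild-type rescue and at 4.96, 7.84 and 2.95 FPKM in the D152V rescue (1.96 ± 0.34, limma adjusted p = 0.00303). This THBS1 call was kept in every alternative run, as were those of SRGN and GP6 between the D152V rescue and the control. GP6 reached 1 FPKM in no D152V library and THBS1 in no wild-type rescue library, so the calls of GP6 and THBS1 rest partly on the filter. GP1BB, a subunit of the platelet receptor for von Willebrand factor, reached 64.0 FPKM in knockdown replicate 1 and was listed at 0 in the other knockdown libraries. It stood at 10.3, 24.9 and 6.49 FPKM in the wild-type rescue, at 0.0715, 1.65 and 0 FPKM in the control and at 0.421, 0 and 0 FPKM in the D152V rescue. GP1BB is 1 of the 12 markers summed next and makes up much of the sums of knockdown replicate 1 and the wild-type rescue. The summed FPKM of 12 megakaryocyte markers was 5.74 to 6.73 in the control, 6.61 to 67.8 in the knockdown, 13.98 to 30.5 in the wild-type rescue and 5.12 to 10.3 in the D152V rescue.

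Levels per transcript length ordered the members in the control as NFE2, CBFB, GFI1B, RUNX1, SPI1, CEBPG, CEBPB, ETV6, GFI1 and FLI1, with RUNX1 (17.2 ± 1.31 FPKM) and SPI1 (16.7 ± 4.90 FPKM) closer than their SDs. In the knockdown SPI1 (23.7 ± 4.98 FPKM) ranked above RUNX1 (12.9 ± 1.40 FPKM), with no overlap of libraries. In the wild-type rescue RUNX1 (24.4 ± 5.11 FPKM) ranked above SPI1 (11.5 ± 2.37 FPKM), also without overlap. In the D152V rescue RUNX1 was at 12.8 ± 2.80 FPKM and SPI1 at 7.35 ± 1.55 FPKM, all libraries of RUNX1 again above those of SPI1.

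Across the 12 libraries the genes whose log2 values followed those of a member most closely, among 8383 or 8384 protein-coding genes with a mean of at least 5 FPKM, were found by Pearson r, as a description over libraries that share groups and scaling. For RUNX1 they were DOK3 (0.953), RBM14 (0.950) and ZFP36L2 (0.946), and for CBFB they were NOB1 (0.985), PLEKHB2 (0.974) and CTDSPL2 (0.970). SPI1 was followed by RPL27 (0.944), LYSET (0.928) and CD33 (0.919), CEBPB by SH3D19 (0.979), LSM3 (0.979) and COX16 (0.976), and ETV6 by AKAP1 (0.979), UTP25 (0.979) and POT1 (0.977). Knockdown replicate 1 was far the highest library of CEBPB, SH3D19, LSM3 and COX16 (13.1, 367, 103 and 40.8 FPKM). The next highest libraries held 7.57, 103, 45.9 and 14.2 FPKM. The same library was the lowest of CBFB, ETV6 and the genes that followed them. Correlations without it were not computed. Among the members the correlations furthest from 0 were -0.810 for CEBPB with ETV6, -0.755 for SPI1 with NFE2 and 0.750 for RUNX1 with ETV6, over 28 pairs. The first of these rests partly on knockdown replicate 1, which held both the highest CEBPB and the lowest ETV6 value (13.1 and 0.759 FPKM).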

How the data were processed

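The authors deposited 1 table of FPKM values for 12 K-562 libraries, made from stranded poly(A) libraries per the labels' protocols. Per the submitters' processing notes, bcl2fastq 2.17.1.14, Trimmomatic 0.33, TopHat2 2.0.13, Cufflinks 2.2.1 and GRCh38 were used; no label or header gives the annotation or the use of strand. Depth is unknown: low values compared between libraries came within 2% of a common ratio in only 4.91% of cases (median over pairs), so whole reads were not recovered and no count model was used.

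Groups came from sample titles. Genes with at least 1 FPKM in at least 3 libraries were tested on log2(FPKM + 1), which understates changes of low genes, with limma 3.58.1 in R 4.3.3 (group means, variance trend, 8 residual degrees of freedom, Benjamini-Hochberg adjustment), after a check on simulated data. Python 3.11.15 with pandas 2.3.3 and matplotlib 3.10.9 made tables and figures. Symbols came from a table of Ensembl identifiers, coordinates and promoters from RefSeq on GRCh38.p14. The members and lists were chosen with earlier results of these data known. Named genes were MYB, the 10 members, up to 4 called and 4 abundant genes of each list per comparison (of these, mainly those whose calls were kept in every alternative are given), and the 3 genes most like each called member.

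Same-numbered libraries of the rescue lines deviated together (r 0.153 to 0.233, each over 0.1, from the data and not from a label), and other pairs of groups did not all do so. Alternatives were the pseudocount (0.1), the filter, scaling, robust moderation, a replicate block, fits of 6 libraries, a threshold of 0.01 and leaving out each library.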

Additional observations from a re-analysis of the deposited data

Results flagged for a closer look

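RUNX1 stood out because the effects of the rescues against the same knockdown differed, tested as the difference itself in the limma fit. The D152V rescue minus the wild-type rescue was -0.879 on the log2(FPKM + 1) scale (SE 0.18, adjusted p = 0.00832). All 3 D152V libraries lay below all 3 wild-type rescue libraries. The rescues are separate stable lines, so line and construct cannot be told apart. Their MYB RNA also differed, at 86.2 to 100 FPKM with D152V and 115 to 132 FPKM with wild-type MYB. The part of the MYB level in the RUNX1 difference was not tested.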

How the results depend on the processing

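Single members were recomputed under 20 settings (19 for ETV6). Of 954 values, 901 stayed on their side of the threshold, 36 lost and 17 gained a call, and 19 uncalled values of 11 of 48 results changed sign. The counts of called members moved as follows. Calls over all genes moved as well: leaving out single libraries gave 142 to 1728 lower genes in the knockdown against the control. For the knockdown against the control, 2 lower became 1 with no filter, 1 with a mean of at least 5 FPKM, 0 in the fit of 6 libraries and 0 at a threshold of 0.01, and ranged from 0 to 2 as single libraries were left out; 0 higher ranged from 0 to 1. For the wild-type rescue against the knockdown, 2 higher became 1 with a mean of at least 5 FPKM, and 2 lower became 1 in the fit of 6 libraries and at 0.01. For the D152V rescue against the knockdown, 1 higher became 0 with no filter, with a mean of at least 5 FPKM, in the fit of 6 libraries and at 0.01, and ranged from 0 to 1 with single libraries left out; 2 lower became 1 with no filter, in the fit of 6 libraries and at 0.01, and ranged from 1 to 3. For the D152V against the wild-type rescue, 0 higher became 1 with quantile normalization and ranged from 0 to 1, and 1 lower became 3 in the fit of 6 libraries and ranged from 1 to 2. Against the control, 0 lower in the wild-type rescue became 1 in the fit of 6 libraries and ranged from 0 to 1, and 2 lower in the D152V rescue became 1 at 0.01 and ranged from 1 to 2. The fit of 6 libraries also moved the calls over all 13393 genes. In the knockdown against the control 4 were higher and 12 lower, against 528 and 988 in the main fit. In the wild-type rescue against the knockdown 2266 lower became 731. In the D152V rescue against the knockdown 1745 higher became 329 and 1610 lower became 219. Between the rescues 829 lower became 1838, and in the wild-type rescue against the control 614 lower became 1874. The cause of these moves was not tested beyond the construction of each setting.

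With the replicate block, counts were 1 higher in the knockdown against the control, 2 higher in the D152V rescue against the knockdown, 2 lower in the D152V against the wild-type rescue and 1 lower in the wild-type rescue against the control. Over all 13393 genes these counts were 587, 1975, 943 and 713 with the block. The block called SPI1 in the knockdown against the control (adjusted p = 0.0181) and in the wild-type rescue against the control (0.0132). By the labels those groups share only a number. Deviations of same-numbered control and knockdown libraries correlated at r 0.038 to 0.132, and of other numbers at -0.146 to 0.031. For the control and the wild-type rescue these were 0.024 to 0.349 and -0.256 to 0.218. Whether the numbers pair these libraries was not tested. Beside NFE2 and SPI1 the block changed no other call of a member. Over all genes, 34.8% of calls in the knockdown against the control were higher, against 45.2% with median-ratio scaling and 45.5% with quantile normalization. Depth is unknown, so no counting error can be given, and GFI1 and FLI1 lie too low to test.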
